A study of Mus musculus with 10 samples.

Results

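The windows around Nfkbia, Nfkbie, Nfkbiz and Bcl3, the mouse genes of 4 inhibitor-of-κB (IκB) family proteins, held 46 of the 114312 regions listed by 9 ChIP-seq libraries of macrophages. A region was a member when it overlapped a fixed mm9 window by at least 1 bp: chr12:56540000-56645000 for Nfkbia, chr17:45650000-45735000 for Nfkbie, chr16:55760000-55890000 for Nfkbiz or chr7:20360000-20445000 for Bcl3. The rule itself uses position alone, though the loci were chosen with earlier results of these data known. RelA lists gave 26 of the members and lists of the glucocorticoid receptor (GR) gave 20. No region of the input library lay in a window, so no member met input DNA.

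NF-κB dimers that contain RelA wait in the cytoplasm of resting macrophages, held there by IκBα (the product of Nfkbia) and IκBε (the product of Nfkbie). Lipopolysaccharide (LPS), a molecule of the outer membrane of Gram-negative bacteria, acts through Toll-like receptor 4 to have these inhibitors phosphorylated and degraded, and freed RelA then binds DNA and drives the synthesis of new IκBα, a negative feedback loop. The nuclear members of the family work on chromatin: IκBζ (Nfkbiz) is made after LPS and helps activate a subset of inflammatory genes such as Il6, and Bcl-3 (Bcl3) binds p50 and p52 homodimers and restrains inflammatory transcription in macrophages. GR is a steroid-activated transcription factor, and induction of Nfkbia is one of the ways in which glucocorticoids are known to restrain NF-κB in some cell types.

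All cells were macrophages grown from bone marrow of C57BL/6J mice, with no genetic change named in the labels. RelA was precipitated in 7 libraries: after 8 h of LPS with dexamethasone (Dex, a synthetic glucocorticoid) given late, after 0, 3 and 8 h of LPS with Dex given 3 h before, and after 0, 3 and 8 h of LPS with no Dex. GR was precipitated from cells given LPS and Dex and from cells given Dex alone, with no times in the labels, and 1 library was input DNA of untreated cells. The hour of the late Dex is not in the labels. Names of some deposited files, those of the 0 h and late Dex libraries among them, carry times that differ from the labels or are absent from them, and the labels were followed here. Cells for RelA were fixed with 1% formaldehyde for 10 min, and cells for GR were treated first with 2 mM disuccinimidyl glutarate for 30 min, which also captures receptor held on DNA through other proteins. The lists give no expression values, so the labelled cell type could not be checked against marker genes.

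Each condition had 1 library. No test between conditions was possible, and each difference below is between 2 libraries with no replicate check. The lists differed widely in length: 225 regions outside input with late Dex, 43, 33 and 15 with Dex before 0, 3 and 8 h of LPS, 47, 4972 and 1878 at 0, 3 and 8 h of LPS with no Dex, 51358 for GR with LPS and Dex and 54875 for GR with Dex. Input regions met 80.8% of the list with Dex before 8 h of LPS and 0.635% of the 8 h list with no Dex. The depth of the libraries is unknown. Strength is given as the highest tag density of a region, as the authors deposited it, with its rank in its own list, since the scaling of densities between lists is not stated. A region that is not called may still carry signal below the authors' unstated threshold.

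Promoter sequences are shown for 3 of the 4 genes, because κB sites are the sequence through which RelA binds. They are those of RefSeq on GRCm38.p6, 250 bases before to 50 after the annotated gene start, 5′ to 3′ in the gene's direction. The capitals mark the 1 match in each to the 10-base κB consensus, searched on both strands.
Nfkbia, chromosome 12, minus strand: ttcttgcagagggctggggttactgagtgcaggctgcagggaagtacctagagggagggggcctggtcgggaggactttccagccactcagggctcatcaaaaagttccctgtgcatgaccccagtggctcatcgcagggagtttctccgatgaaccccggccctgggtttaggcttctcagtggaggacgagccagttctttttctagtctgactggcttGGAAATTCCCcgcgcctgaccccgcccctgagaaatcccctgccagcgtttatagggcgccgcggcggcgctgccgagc
Nfkbie, chromosome 17, plus strand: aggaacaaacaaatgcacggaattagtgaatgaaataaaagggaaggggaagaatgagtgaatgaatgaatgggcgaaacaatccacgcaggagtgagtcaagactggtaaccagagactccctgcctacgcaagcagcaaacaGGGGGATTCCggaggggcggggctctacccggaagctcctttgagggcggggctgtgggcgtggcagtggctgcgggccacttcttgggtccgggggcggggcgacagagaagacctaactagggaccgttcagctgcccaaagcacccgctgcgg
Bcl3, chromosome 7, minus strand: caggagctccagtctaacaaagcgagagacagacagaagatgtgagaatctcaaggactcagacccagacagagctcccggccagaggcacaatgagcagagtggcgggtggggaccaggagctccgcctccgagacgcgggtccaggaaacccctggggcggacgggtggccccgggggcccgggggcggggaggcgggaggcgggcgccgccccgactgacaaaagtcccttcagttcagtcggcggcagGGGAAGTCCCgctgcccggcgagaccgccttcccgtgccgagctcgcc

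The consensus match ran from base -29 to -20 of Nfkbia, from -106 to -97 of Nfkbie and from 3 to 12 of Bcl3, counted from the gene start. The consensus occurred in 4.51% of the 32851 promoters of the table. A looser pattern, GGG and CC separated by 5 bases, matched 2 times in Nfkbia, 3 times in Nfkbie and 5 times in Bcl3, partly in overlapping positions and including the capitals, and occurred in 50.8% of promoters. A glucocorticoid response element, AGNACA and TGTNCT separated by 3 bases, was found in none of the 3 and in 0.0639% of promoters. These promoters are on another build than the regions, so which region covers which start site is not given here. No region is assigned to 1 gene. In the gene order of GRCm38.p6 the neighbours, whose place relative to the mm9 windows was not determined, include Psma6 and Aldoart2 for Nfkbia, Tmem151b, Slc35b2 and Hsp90ab1 for Nfkbie, Nxpe3 for Nfkbiz, and Cblc and Gm19345 for Bcl3.

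RelA was listed in all 4 windows after 3 h of LPS, in 3 of them after 8 h, and only in that of Nfkbia when Dex was given late. Late Dex had 2 regions in all windows together and Dex before LPS had 0 at each time, while with no Dex there were 0, 18 and 6 in order of time (0, 3 and 8 h). In the same order the numbers with no Dex were 0, 6 and 3 for Nfkbia, 0, 5 and 0 for Nfkbie, 0, 3 and 2 for Nfkbiz, and 0, 4 and 1 for Bcl3. The map of regions by library shows these positions.

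**Figure D1:**
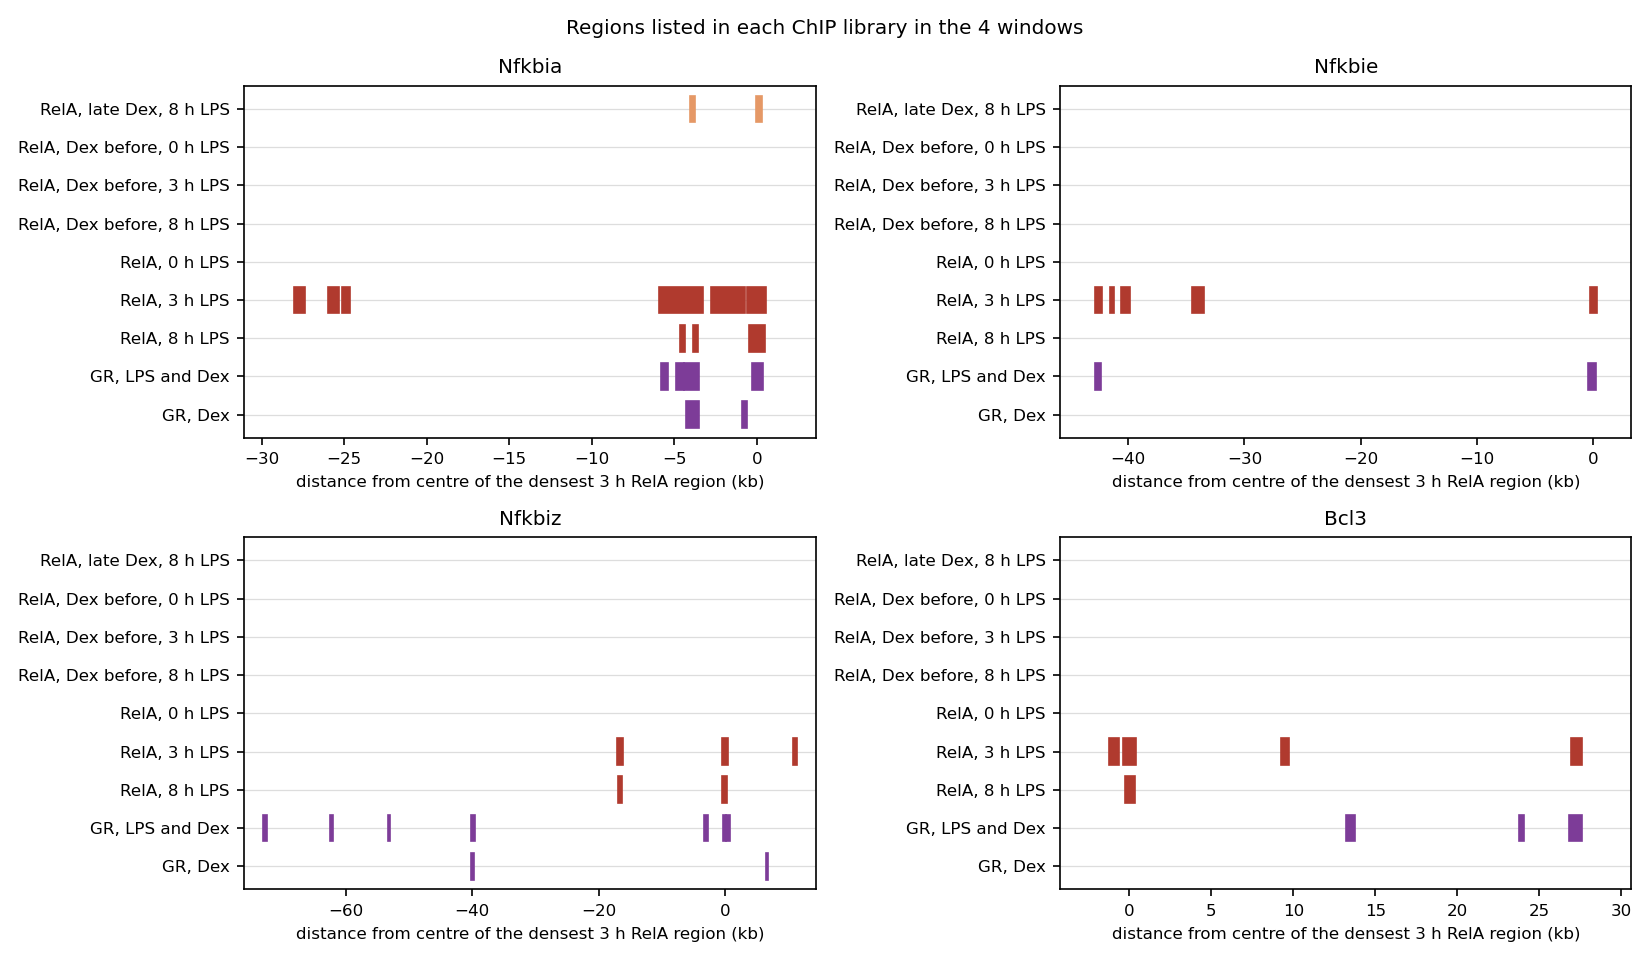
Regions in the windows of Nfkbia, Nfkbie, Nfkbiz and Bcl3, by library (rows) and distance in kb from the centre of the 3 h RelA region with the highest tag density in that window (horizontal axis). Bars are drawn at the width of the region, in red for RelA with no Dex, orange for RelA with Dex and purple for GR; the 3 rows with Dex before LPS and the row of 0 h are empty in all 4 windows.

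Nfkbia carried the widest RelA regions and 1 of the densest. The region at chr12:56593143-56594294 had a highest tag density of 72.6 at 3 h, rank 66 of 4972, and a score (the authors' z-score) of 59.9. To its left lay chr12:56590922-56592984 with a density of 23.9 and chr12:56587784-56590485 with 39.3. At 2062 and 2701 bp, these 2 regions ranked 21 and 8 by width in the 3 h list, whose median width was 538 bp. The 3 regions were contiguous but for short gaps, the smallest of 159 bp.

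A second group at Nfkbia had its centres at -27706, -25656 and -24893 bp from that of the densest region (negative to the left). It consisted of chr12:56565665-56566360 (density 45.8), chr12:56567737-56568387 (27.3) and chr12:56568579-56569072 (22.9). All 3 were called at 3 h alone, and none met a GR region of either list. Among the 311 regions of the 3 h list at least as dense as the first of them, 90.7% were called at 8 h. In that class 89.4% met GR of LPS and Dex, and 4.18% did neither. The first region ranked 310 in the list, so nearly all of the class was denser. These shares are therefore not those of regions at its own strength.

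At 8 h the densest Nfkbia region was still listed, at chr12:56593238-56594221 with a density of 51.8 and rank 176 of 1878, against 72.6 at 3 h, and its centre lay 11 bp from that of 3 h. In place of the wide region of 3 h, the 8 h list had 2 narrow ones, chr12:56589077-56589387 (310 bp, density 14.4) and chr12:56589842-56590166 (324 bp, density 23.0). They ranked 1804 and 1125, both below the median density of that list, 25.5. The middle region at chr12:56590922-56592984 was not called at 8 h.

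The late Dex list had 2 regions in the windows, both at Nfkbia. The region chr12:56589679-56590001 had a density of 22.8 with late Dex, against 23.0 in the overlapping 8 h region with no Dex, a ratio of 0.991. The region chr12:56593693-56594009 had 21.5 with late Dex, against 51.8 with no Dex, a ratio of 0.414. The second ratio is close to the median of 0.435 over the 202 regions of the 8 h list that were called in both libraries, while the first was above 92.1% of them. A ratio exists only where both lists call a region, and the 5th percentile of density in the late list was 13.3. A region of 23.0 at 8 h could therefore hardly show a low ratio. Of the 202, 108 were at least as dense at 8 h as 51.8 and could fall further. No ratio matched for density was computed. Density was higher with late Dex at 7.43% of those 202 regions, and at neither of the 2 at Nfkbia. In the late list the 2 regions were of middling density, ranks 115 and 136 of 225, and of low score, 10.8 and 10.9. With a score of at least 11 required, neither remained.

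GR lay at some of the RelA places of Nfkbia, the wide and the densest regions of 3 h among them, and not at the second group. Its densest region there was chr12:56589309-56590228 with LPS and Dex, at a density of 64.5 and rank 1091 of 51358, against chr12:56589428-56590198 with Dex alone, at 54.3 and rank 159 of 54875. The GR region of Dex lay wholly inside that of LPS and Dex, and the centres were 45 bp apart. The late Dex RelA region chr12:56589679-56590001 fell wholly inside both, with its centre 72 bp from that of GR with LPS and Dex and 27 bp from that of GR with Dex. The 8 h RelA region chr12:56589842-56590166 of cells with no Dex also fell inside both, with its centre at 236 and 191 bp. With LPS and Dex, 2 weaker GR regions stood beside the dense one, chr12:56587927-56588345 (14.2) and chr12:56588851-56589296 (12.2). Together the 3 GR regions fell within the single wide RelA region of 3 h.

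At the densest RelA region of Nfkbia the 2 GR lists called regions at different positions, that of Dex with a low score. With LPS and Dex, GR was listed at chr12:56593455-56594097 with a density of 26.9, wholly inside the RelA regions of 3 h and 8 h, its centre 57 bp from that of 3 h. With Dex alone it was listed at chr12:56592802-56593158 with 14.8, 738 bp to the left of the RelA centre. The score of that Dex region was 10.0, rank 49029 of 54875, and with a score of at least 11 required it was lost. The 2 GR regions did not overlap and were 297 bp apart. The GR region of Dex touched the densest 3 h RelA region by 15 bp, shared 182 bp with the middle one, and met no RelA region of 8 h or late Dex. The plot of regions near the densest Nfkbia region shows both places.

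**Figure D2:**
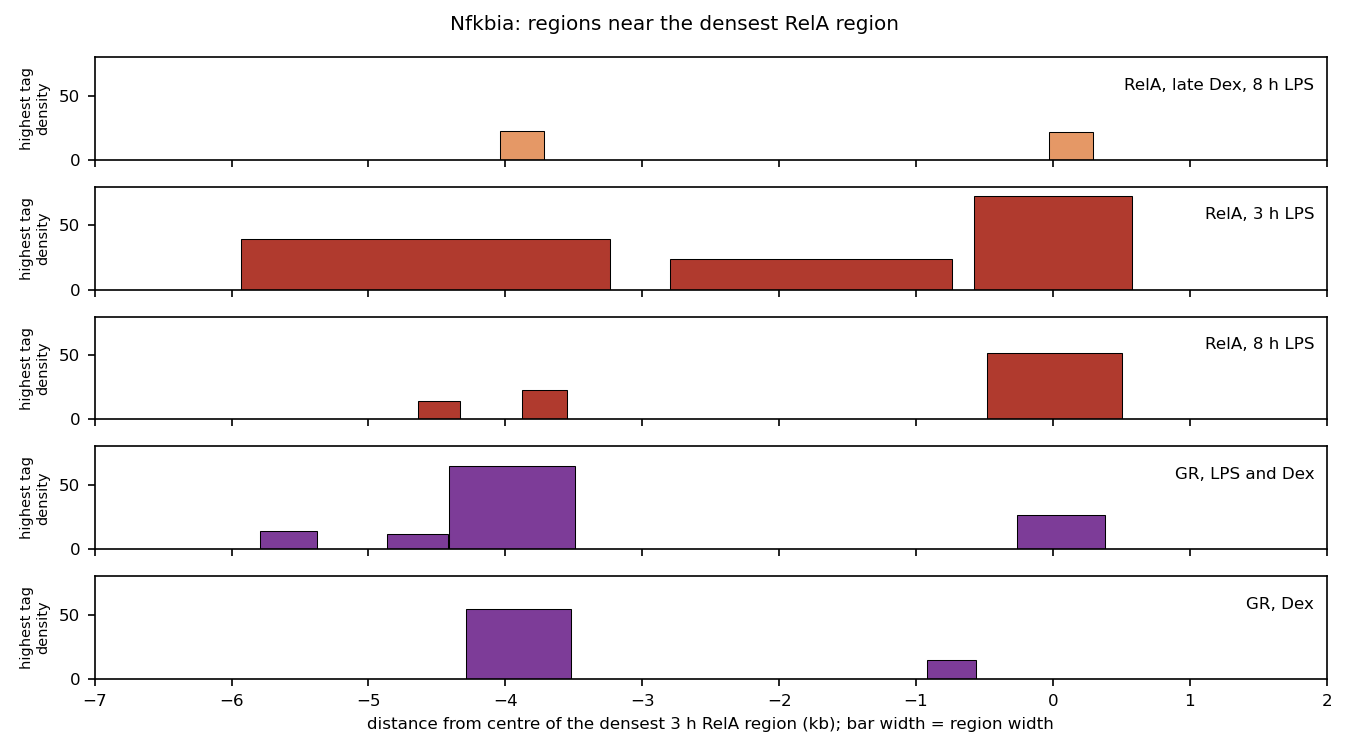
Regions near the densest RelA region of Nfkbia in the 5 libraries that list any there; the horizontal axis is the distance in kb from its centre and the vertical axis the highest tag density as deposited, whose scaling between libraries is not stated. Bar widths are region widths: the GR regions near -4 kb coincide in both GR lists, while those near 0 kb lie 297 bp apart.

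Nfkbiz carried the densest RelA region of the 4 windows. It was listed at chr16:55838604-55839433 with 37.0 at 8 h (rank 402 of 1878), against chr16:55838495-55839516 with 74.7 at 3 h (rank 60 of 4972, score 52.0). A further region was listed at chr16:55822045-55822672 with 35.2 at 8 h, against chr16:55821984-55822919 with 47.3 at 3 h. The third, chr16:55849863-55850423, had 22.0 at 3 h and was not called at 8 h. No RelA region of Nfkbiz had another within 10 kb: the gaps between them were 10347 and 15576 bp.

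No RelA region was called at Nfkbiz with late Dex, although its 8 h regions were denser than most of the list. Such an absence was the more frequent outcome at that strength or above. Of the 406 regions of the 8 h list at least as dense as the first, 37.7% were called with late Dex. Of the 454 at least as dense as the second, 34.8% were. The densest Nfkbia region of 8 h fell in a class where 61.4% of 176 were called.

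Most GR regions of the Nfkbiz window stood apart from RelA. With LPS and Dex the window had 7 GR regions, and with Dex alone it had 2. At the densest RelA region, GR of LPS and Dex was listed in 2 adjoining pieces, chr16:55838692-55839139 with 15.7 and chr16:55839183-55839763 with 32.7, the first wholly inside the RelA region and the second across its right edge. GR of Dex alone was not called there. The other 5 regions of LPS and Dex met no RelA region: chr16:55798852-55799438 (31.5), chr16:55835800-55836401 (27.4), chr16:55765907-55766491 (26.7), chr16:55776390-55776859 (15.6) and chr16:55785603-55785999 (4.68). The first of these was also the denser site of the Dex list, chr16:55798839-55799288, with a density of 31.5 with LPS and Dex, against 13.7 with Dex. The other Dex region, chr16:55845620-55845904, had a density of 2.99, at the median of its list, and is the least dense GR member of the 4 windows. By score the order of these 2 Dex regions was reversed, 9.37 for the denser and 9.79 for the other. Both scores were low, ranks 52572 and 50181 of 54875.

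The RelA region of Nfkbiz at chr16:55821984-55822919 was called at both LPS times and met no GR region. That combination was uncommon at its strength or above: of the 454 regions of the 8 h list at least as dense as its 8 h counterpart, 96.3% met GR of LPS and Dex. Over the whole 8 h list 85.8% did. The class reaches up to the densest regions, so its share is not that of regions at this region's own strength.

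Bcl3 had the same combination at its densest region. RelA was listed at chr7:20402640-20403260 at 8 h with 35.0 (rank 455 of 1878), against chr7:20402475-20403317 at 3 h with 30.1 (rank 849 of 4972), and no GR region met either. Of the 461 regions of the 8 h list at least as dense, 95.9% met GR of LPS and Dex and 34.3% were called with late Dex, which this one was not. Here too the class includes far denser regions, so these are not shares at its own strength. Weaker regions of 3 h lay 198 bp to its left at chr7:20401670-20402277 (18.1) and to its right at chr7:20412138-20412612 (16.4), both called at 3 h alone. Only 169 regions of the whole 3 h list, 3.40% of it, shared the pattern of being called at 3 h and 8 h with no Dex and in no other list, and 2 of those were the Nfkbiz and Bcl3 regions described.

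GR at Bcl3 lay away from the densest RelA region and was in the list of LPS and Dex and not in that of Dex. It was listed at chr7:20416101-20416639 (28.8), chr7:20426642-20426936 (12.7) and chr7:20429671-20430502 (27.4). The last contained the whole RelA region chr7:20429829-20430462, which had 24.2 at 3 h and was not called at 8 h. The Dex list had none in this window.

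Nfkbie, the other cytoplasmic inhibitor, had the lowest median density of RelA regions among the 4 windows. At 8 h, 0 of its 5 regions were called, against 31.3% of the 3 h list. Of the regions at least as dense as each of the 5, 44.6 to 69.3% were called at 8 h. Those classes reach up to the densest regions of the list, which were called at 8 h more often. Their shares are therefore not those of regions as weak as the 5, and the difference was not tested. Densities of the 5 at 3 h were 19.8 at chr17:45692197-45692821, 16.9 at chr17:45693523-45693824, 18.2 at chr17:45694444-45695233, 23.1 at chr17:45700548-45701599 and 25.6 at chr17:45734762-45735353. The first 4 lay within 10 kb of one another. The fifth crossed the right edge of the window by 353 bp, and without it the densest region of Nfkbie would be that of 23.1, which is 1051 bp wide and had the highest score of the 5, 22.1.

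With LPS and Dex, GR met the first and the last of the Nfkbie regions, at chr17:45692225-45692714 (21.7) and chr17:45734625-45735310 (32.6). Both pairs were close, with centres 40 and 90 bp apart. With Dex alone no GR region was listed in this window.

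Compared with all regions of their lists, the members had the higher median density in 4 of the 5 lists that held any, late Dex being the exception. The 18 RelA regions of 3 h had a median density of 24.1, against 18.5 over the whole list, and 14 of them were above that value. By window the median was 47.3 at Nfkbiz, 33.3 at Nfkbia, 21.1 at Bcl3 and 19.8 at Nfkbie. The 6 regions of 8 h had a median of 35.1, against 25.5, and the 2 of late Dex 22.1, against 23.3. All 16 GR regions of LPS and Dex were above their list's median of 4.01, with a median of 26.8, and the 4 of Dex had a median of 14.3, against 2.99. By score the GR members were less uniform. With LPS and Dex their score ranks ran from 1031 to 44485 of 51358. With Dex the Nfkbia region of density 54.3 had score rank 282 of 54875. Those of 14.8, 13.7 and 2.99 had score ranks 49029, 52572 and 50181, near the bottom of the list.

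**Figure D3:**
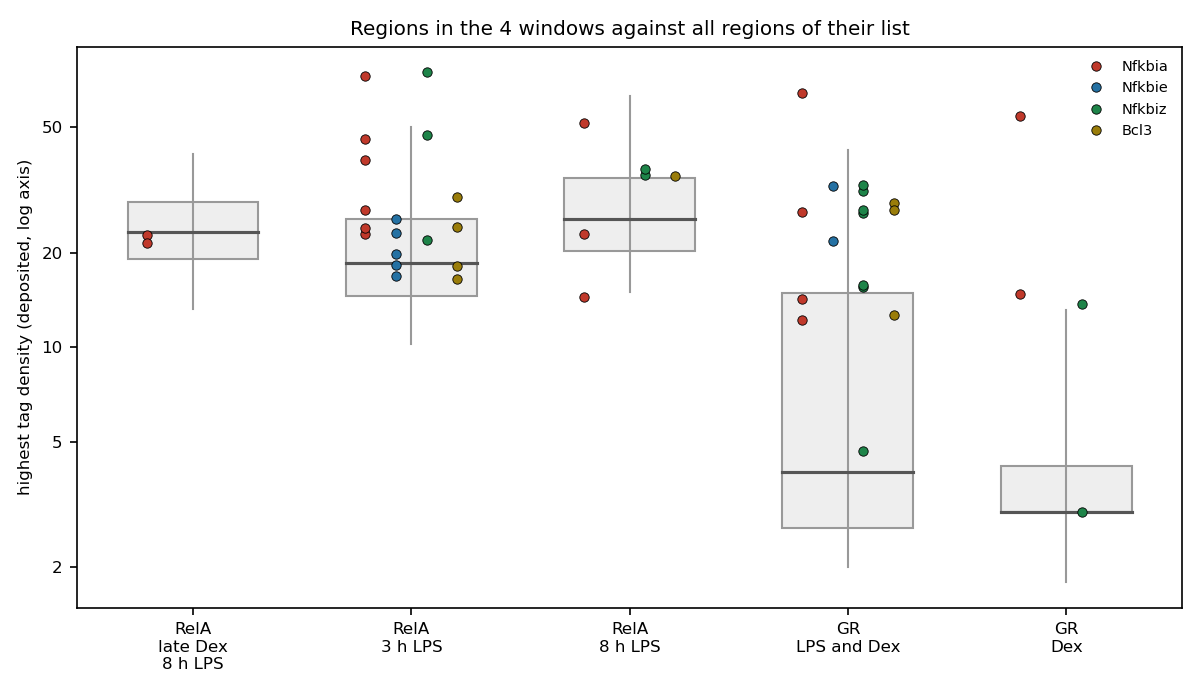
Highest tag density (log axis, as deposited) of every member region, coloured by gene, in the 5 lists that hold any; grey boxes span the quartiles of all regions of the list outside input with the median as a bar, and lines run from the 5th to the 95th percentile. Densest at 3 h are 1 Nfkbiz region at 74.7 and 1 Nfkbia region at 72.6, and the Nfkbia GR region reaches 64.5 with LPS and Dex and 54.3 with Dex.

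RelA regions lay in groups at Nfkbia, Nfkbie and Bcl3 and singly at Nfkbiz. Of the 18 at 3 h, 13 had another within 10 kb, a share of 72.2% (Wilson 95% interval 49.1 to 87.5, counting error only), against 34.6% over the whole list. They were 6 of 6 at Nfkbia, 4 of 5 at Nfkbie, 3 of 4 at Bcl3 and 0 of 3 at Nfkbiz. For GR of LPS and Dex the share was 13 of 16, or 81.2% (57.0 to 93.4), against 64.7%. The distance of 10 kb was taken over from earlier work on these lists, and neighbours in a window are not independent of each other.

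Between the LPS times, the share of regions called at both was near that of the list, and 4 of the 5 shared regions were less dense at 8 h. Of the 18 regions of 3 h, 5 were called at 8 h, 27.8% (12.5 to 50.9), against 31.3% of the list. The 18 were denser than the list, with a median of 24.1 against 18.5, and the 2 shares are not matched for density. All 6 regions of 8 h had been called at 3 h, against 83.9% of the list. None of the 18 was called at 0 h, against 0.744%. At the 5 regions called at both times, density at 8 h over that at 3 h was 0.585 and 0.714 at Nfkbia, 0.495 and 0.744 at Nfkbiz, and 1.17 at Bcl3. Over the 1556 regions of the 3 h list called at both times the median ratio was 1.03 (log2 0.04, quartiles -0.34 and 0.36), and density was higher at 8 h at 53.0% of them. The Nfkbiz region with 0.495 was lower than all but 3.15% of these, and the wide Nfkbia region lower than all but 6.30%. These percentiles are not matched for density at 3 h. The 5th percentile of the 8 h list was 15.0, against a median of 18.5 in the 3 h list. Weak regions of 3 h could therefore seldom show a low ratio and still be called at 8 h, while dense ones such as these 2 could. Since the wide region met 2 of 8 h, the denser of them was used.

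The lists with Dex before LPS had no region in any window. At 3 h it was 0 of 18 with an interval of 0 to 17.6%, against 0.241% of the list, and at 8 h 0 of 6 with an interval of 0 to 39.0%, against 0.160%. Both intervals start at 0 and so had to include shares as low as those of the list, which makes them uninformative here. The 2 pretreated lists held only 33 and 15 regions outside input. At or above the strength of the densest Nfkbia region few were called in both. Of the 66 regions of the 3 h list at least as dense, 8 were called with Dex before 3 h of LPS, 12.1% (6.27 to 22.1). Of the 60 at least as dense as that of Nfkbiz, it was 13.3% (6.91 to 24.2). The pretreated 3 h list outside input reached down to a density of 4.06. With late Dex, 2 of the 6 regions of 8 h were called, 33.3% (9.68 to 70.0), against 10.8% of the list.

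**Figure D4:**
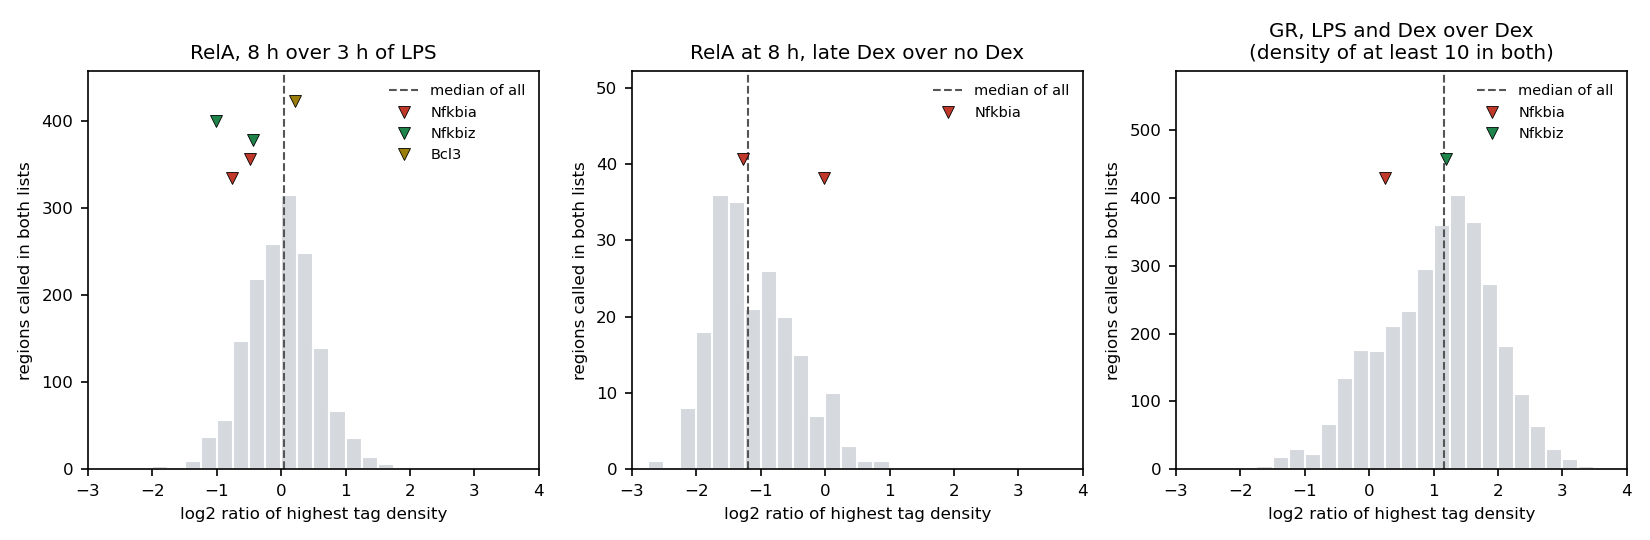
Log2 ratio of highest tag density at regions called in both of 2 lists (grey histograms, dashed line at the median) for RelA at 8 h over 3 h of LPS, RelA at 8 h with late Dex over no Dex, and GR with LPS and Dex over Dex where both densities were at least 10. Triangles mark member regions at their ratio, their height carrying no value: 4 of 5 lie below the median of 0.04 in the first panel, and 1 of the 2 Nfkbia regions is near a log2 ratio of 0 with late Dex.

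At 3 h a minority of the RelA regions in these windows met GR of LPS and Dex. They were 6 of 18, 33.3% (16.3 to 56.3), against 62.0% of the list, and the difference was not tested. By window, they were 2 each at Nfkbia and Nfkbie and 1 each at Nfkbiz and Bcl3. For GR of Dex it was 3 of 18, 16.7% (5.84 to 39.2), against 17.5%, and all 3 were at Nfkbia. With centres within 250 bp required, or at least 50% of both regions shared, none of the 18 met GR of Dex. At 8 h, 4 of 6 regions met GR of LPS and Dex, 66.7% (30.0 to 90.3), against 85.8%, and 1 of 6 met GR of Dex, 16.7% (3.01 to 56.4), against 18.4%. Of the 3 h members, 9 of 18, or 50.0% (29.0 to 71.0), were called in no other list, against 34.1%.

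Many GR regions of the windows met RelA. Of the 16 GR regions of LPS and Dex, 9 met a 3 h RelA region, 56.2% (33.2 to 76.9), against 6.05% of the list. Of the 4 of Dex, 2 did, against 1.59%. Most of the GR list is of low density, and with a density of at least 10 it was 9 of 15, 60.0% (35.7 to 80.2), against 18.7%. The 9 lay at 6 RelA regions, with several side by side at the wide Nfkbia region and at the densest Nfkbiz region. The intervals count such neighbours as separate, although they are not independent. The windows surround known NF-κB targets, so RelA there is no independent result.

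Most GR regions of LPS and Dex at these loci met no region of the Dex list, and the same held for most of the whole list. Of the 16 with LPS and Dex, 2 met a region of the Dex list, 12.5% (3.50 to 36.0), against 37.4%, and of the 4 with Dex, 2 met one of LPS and Dex, 50.0% (15.0 to 85.0), against 35.0%. With a density of at least 10 in both lists it was 2 of 15, 13.3% (3.74 to 37.9), against 19.4%, and 2 of 3, 66.7% (20.8 to 93.9), against 85.2%. At that density both intervals include the list's share. At the 2 regions called in both lists, density with LPS and Dex over that with Dex was 1.19 at Nfkbia and 2.29 at Nfkbiz. Over all shared regions the ratio was above 1 at 55.3%, and at 85.7% of the 3182 with at least 10 in both, where its median was 2.24. Among these 3182, the Nfkbia region was above 19.7% and that of Nfkbiz above 51.7%. Among all 19179 shared regions, whose median ratio was 1.12, the Nfkbia region was above 62.4% and that of Nfkbiz above 89.5%. The side of the median on which the Nfkbia region fell therefore depended on the bound, and neither set is matched for density.

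**Figure D5:**
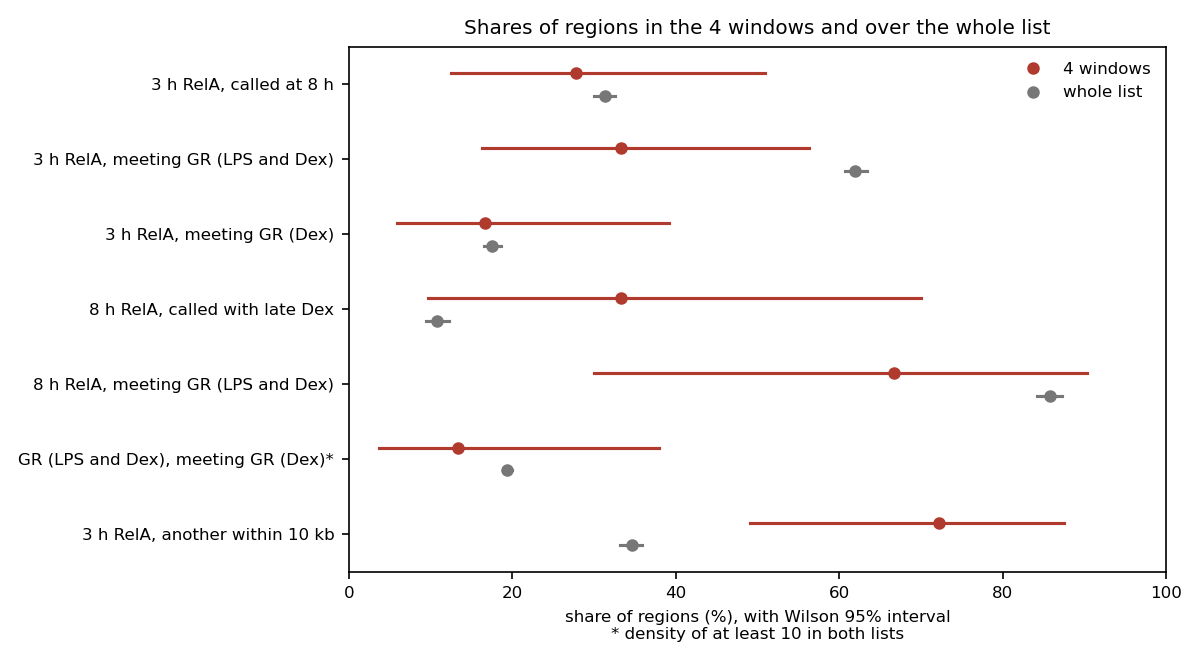
Shares of regions (horizontal axis, %) meeting a second list or a neighbour, in the 4 windows (red) and over the whole list (grey), with Wilson 95% intervals for counting error. The 3 h RelA share meeting GR of LPS and Dex is 33.3% in the windows and 62.0% over the list, and the share with another region within 10 kb is 72.2% in the windows and 34.6% over the list.

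The densest regions of the 4 genes differed in the lists that called them. Joined where they overlapped, the members formed 25 sites: 11 with RelA alone, 6 with RelA and GR and 8 with GR alone, of which 6 were at Nfkbiz and 2 at Bcl3. The densest Nfkbia region was called with late Dex, at 3 h, at 8 h and in both GR lists, a pattern held by 46 regions, the wide Nfkbia region among them, 0.925% of the 3 h list, of which 13 were at least as dense. Its place among them rests on the 15 bp it shares with GR of Dex: with at least 50% of both regions shared, or centres within 250 bp, no member region of 3 h met GR of Dex. Nfkbiz's densest region was called at 3 h, at 8 h and for GR with LPS and Dex, like 920 regions or 18.5%, of which 6 were at least as dense. The densest of Nfkbie was called at 3 h and for GR with LPS and Dex, like 1165 regions or 23.4%.

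Regions elsewhere with the most similar values were sought over the 9 ChIP lists, as the Euclidean distance of log2(highest tag density + 1) with 0 where not called. For Nfkbia the nearest was chr15:59288347-59289335 at a distance of 0.918, with 20.9 with late Dex, 57.5 at 3 h, 59.0 at 8 h, 48.2 for GR with LPS and Dex and 13.1 for GR with Dex. The next were chr11:11685364-11686179 (1.14) and chr5:114044133-114045043 (1.42). The other 3 loci had nearer counterparts: chr17:56091432-56092458 for Nfkbiz (0.179), chr7:95363362-95363982 for Bcl3 (0.152) and chrX:166236582-166237163 for Nfkbie (0.0199). Their next 2 lay at up to 0.327, 0.188 and 0.0890. The densest regions of Nfkbiz, Bcl3 and Nfkbie were called in fewer lists, so fewer values add to their distances. Their patterns were also held by 920, 169 and 1165 regions, against 46 for Nfkbia, so distances are not comparable between loci. The value for GR with Dex at Nfkbia, 14.8, enters its distance through an overlap of 15 bp.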

How the data were processed

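The submitters' processing notes name CASAVA and the build mm9. How regions were called, and from which threshold, is not stated. The authors deposited 1 list per library. The highest and mean tag densities are signal values, per the file headers, and their scaling and any input subtraction are not stated. Each region also has a z-score, which the authors deposited as a score, and a deposited p-value that no result here uses. These are the authors' values per region and serve to describe and rank regions within a list; ratios between lists rest on the unstated scaling.

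An overlap was 1 bp or more, and ChIP regions meeting input were left out. Shares carry Wilson 95% intervals, for counting error only. Overlap code (Python 3.11.15, pandas 2.3.3, scipy 1.17.1) was tested on simulated data. By the rule for named regions, every RelA region is described, with the GR regions that meet RelA and the 3 densest per locus and list; the few other GR regions were named after their values were seen. The 3 most similar regions elsewhere were taken per locus. Windows, lists and rules were chosen with earlier results of these data known; the comparison with regions at least as dense, the 10 kb neighbours and the GR ratio at a density of at least 10 were added after the values had been seen. Promoters and gene neighbours came from RefSeq tables (GRCm38.p6), used for sequence and names only; 3 of 4 genes matched a promoter. With no mm9 annotation used here, positions within genes are not given. The other genes of the pathway could not be placed on mm9 and are not analysed here.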

Additional observations from a re-analysis of the deposited data

How the results depend on the processing

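Of 67 recalculations of 14 counts and shares, 60 stayed within 1.5 times the count or inside the interval of the share. Many of the 60 could not move. No member met input, so keeping regions that met input changed nothing, and values with Dex before 3 h of LPS began at 0. The intervals are also wide: the 3 h share meeting GR of Dex went from 16.7% to 5.88% with a score of at least 11 and counted as unmoved. The tally therefore says little about robustness. The 7 that moved were as follows. With a score of at least 11, late Dex had 0 regions in the windows and met 0% of the 6 regions of 8 h, GR with Dex had 1 region, and 100% of it met GR of LPS and Dex. With at least 50% of both regions shared, 0% of the 8 h regions were called with late Dex and 0% of the 3 h regions met GR of Dex, and with centres within 250 bp the share meeting GR of Dex was again 0%. By construction these settings drop regions of low score and pairs that are offset or of unequal width. Of the late Dex regions at Nfkbia, 1 was offset from an 8 h partner of like width and covered 49.1% of it, and the other covered 32.1% of a wider one. The GR regions of Dex covered 28.5%, 8.83% and 1.30% of the RelA regions of 3 h, and the last pair shared 4.21% of the GR region. Merging regions within 500 bp gave 22 sites, against 25. Shortening the windows by 10 kb at both ends left out 1 RelA region of 3 h, at Nfkbie, and 2 GR regions of LPS and Dex. No replicate could be left out, with 1 library per condition. No paired analysis was possible because no condition has a second library. Depth is unknown, and shares over the 6 regions at 8 h or the 4 of GR with Dex have wide intervals.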
